A study of Danio rerio with 6 samples.

Results

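Pigment cell genes were followed in the trunk and tail of zebrafish (Danio rerio) larvae carrying the runzel mutation, which the series title places in titin, and in their wildtype siblings. The members were all probe sets whose single gene symbol in the platform annotation was one of 10 genes known for what they do in pigment cells. These were the melanophore genes dct, tyr, tyrp1b, pmela, mitfa, oca2 and slc24a5, the xanthophore genes gch2 and xdh, and the iridophore gene pnp4a, and the rule that picks them uses symbols, not signal values. Of the 15617 probe sets of the table, 5 were members, representing 4 of the 8793 distinct genes named on the array. The melanophore genes dct, tyr and mitfa had 1 probe set each and the xanthophore gene gch2 had 2. The symbols tyrp1b, pmela, oca2, slc24a5, xdh and pnp4a were attached to no probe set, alone or together with other genes, so that no iridophore member was found and those 6 genes were not analysed here.

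Samples were taken at 3 to 3.5 days post fertilization (dpf), when the phenotype first becomes visible. The 3 runzel arrays came from mutants and the 3 wildtype arrays from siblings, with head, heart and gut cut away and the muscle of the trunk and tail pooled before RNA extraction, and no treatment is named for either group. The mutant groups were matched to siblings of the same clutch, from 3 clutches in all, per the series description. Pooled animals, a single mutant line and the skin and other tissues left on the dissected trunk limit what a group can stand for. No label ties an array to a clutch, so p-values measure only the spread between these samples.

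Adult and larval zebrafish carry several classes of pigment cell, all derived from the neural crest. Melanophores make black melanin in melanosomes, xanthophores make yellow pteridines and store carotenoids, and iridophores reflect light from guanine crystals made by purine synthesis. In larvae these cells lie in stripes beneath the epidermis and along the muscle segments, so that a trunk preparation carries their RNA. The pigmented epithelium of the eye also makes melanin with the same enzymes, but the eye was removed with the head.

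Median signals lay between 602.1 and 672.3 over the 6 arrays, and arrays correlated at 0.944 to 0.98 over the 9301 probe sets tested. All 21 measured genes of a skeletal muscle list were bright enough to be tested, and their summed signal lay at 1242945 to 1434705 on runzel and 1316469 to 1593166 on wildtype arrays. The brightest of 4 ttn.2 probe sets had a mean signal of 32167 ± 11879 on runzel and 17800 ± 10002 on wildtype arrays (SD, n = 3), which is no check of the genotype, as the position of the mutation relative to the probes is unknown here. Actin control probe sets, whose 3′ over 5′ signal ratio rises as RNA breaks down, gave a ratio of 2.49 ± 0.398 on runzel and 1.51 ± 0.195 on wildtype arrays (SD over 3 arrays each). Their ranges did not overlap (exact permutation p = 0.1, the lowest this design allows). These control probe sets are named for acta1, and acta1a of the muscle list was itself lower in runzel. Its log2 difference was -0.78 (limma adjusted p = 0.772 unpaired and 0.00313 paired). The same ratio for GAPDH ran the other way, at 1.5 ± 0.0374 and 1.57 ± 0.0391 (SD over 3 arrays each, exact permutation p = 0.2). The part of RNA integrity in the results on pigment genes was not tested.

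The comparison asked whether transcripts of trunk pigment cells differ between runzel larvae and wildtype siblings. All 5 member probe sets were bright enough to be tested. Of these, tyr, mitfa and the dimmer gch2 probe set stood at percentiles 54.3, 55.0 and 57.9 of brightness. Whether their signal lay above background was not tested. In limma none of the 5 members passed the threshold. On each of them the signals of the groups overlapped, beside 10.5% of all tested probe sets without overlap (5.89% higher and 4.6% lower in runzel). The mean log2 differences, runzel minus wildtype, ran from -0.037 to 0.16, with 3 members above 0 and 2 below, and a median of 0.049 against 0.0062 over all 9301 tested probe sets. Limma without pairing called 0 of the 5 members and 0% of all tested probe sets, and 0 members had an unadjusted p under 0.05 against 4.81% of all. Limma with arrays paired by replicate number also called 0 members, and it called 1.19% of all probe sets. With 5 members, counts this small do not separate the members from the background. In absolute size, the differences stood between percentiles 2.53 and 57 of all tested probe sets.

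Among the melanophore genes, tyr encodes tyrosinase, which carries out the first step of melanin synthesis. The tyr probe set read 474.8, 1069.8 and 725.4 on runzel arrays 1, 2 and 3, and 715.6, 788.7 and 668.8 on wildtype arrays 1, 2 and 3. The lowest and the highest of the 6 values were both runzel arrays, and the wildtype values lay between them. Means were 756.7 ± 298.7 in runzel and 724.4 ± 60.4 in siblings (SD, n = 3). The log2 difference was -0.0062, a 0.996-fold level with a 95% interval of 0.657 to 1.51 in the unpaired limma fit (adjusted p = 0.999, exact permutation p = 1.0). Within pairs the log2 difference was -0.54, 0.42 and 0.11, with an SD of 0.49, and runzel was higher in 2 of 3 pairs (paired limma adjusted p = 0.996). Without runzel replicate 1 the difference was 0.27, and it stayed uncalled (limma adjusted p = 0.949).

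Downstream of tyrosinase, dct encodes dopachrome tautomerase, and it is also an early marker of cells committed to the melanophore fate. The dct probe set was far brighter, at percentile 96.2 of brightness, and read 10938.8, 11737.5 and 9742.4 on runzel arrays 1, 2 and 3. On wildtype arrays 1, 2 and 3 it read 9762.8, 10094.9 and 10044.5. Runzel arrays 1 and 2 were above every wildtype array and runzel array 3 was below every wildtype array. Means were 10806 ± 1004 in runzel and 9967.4 ± 179 in siblings (SD, n = 3). The log2 difference was 0.11, a 1.08-fold level with a 95% interval of 0.901 to 1.30 (unpaired limma adjusted p = 0.981, exact permutation p = 0.4). Within pairs it was 0.16, 0.22 and -0.044, so that 2 of 3 pairs were higher in runzel (paired limma adjusted p = 0.681, exact sign-flip p = 0.5). The paired 95% interval ran from 0.934-fold to 1.25-fold.

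The transcription factor encoded by mitfa directs the melanophore fate and switches on melanin synthesis genes; zebrafish lacking it (nacre) have no melanophores on the body. Its probe set read 919.3, 874.9 and 602.8 on runzel arrays 1, 2 and 3, and 938.3, 801.2 and 449.1 on wildtype arrays 1, 2 and 3. In both groups array 1 was highest and array 3 lowest, and the groups overlapped. Means were 799.0 ± 171.4 in runzel and 729.5 ± 252.4 in siblings (SD, n = 3). The log2 difference was 0.16, a 1.12-fold level with a 95% interval of 0.722 to 1.73 (unpaired limma adjusted p = 0.998, exact permutation p = 0.7). Within pairs it was -0.028, 0.12 and 0.39, higher in runzel in 2 of 3 pairs (paired limma adjusted p = 0.757, exact sign-flip p = 0.5), and the paired interval was 0.861-fold to 1.45-fold. Without wildtype replicate 3 the unpaired difference was -0.13 (limma adjusted p = 0.98).

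For the xanthophores, gch2 encodes a GTP cyclohydrolase, the enzyme that opens pteridine synthesis and marks xanthophores and their precursors in zebrafish. Its brighter probe set, at percentile 96.8 of brightness, read 13012.3, 12148.9 and 12328.4 on runzel arrays 1, 2 and 3. On wildtype arrays 1, 2 and 3 it read 14044.6, 11084.5 and 13535.5. The runzel values lay inside the wildtype range, with means of 12496 ± 455.6 and 12888 ± 1582.7 (SD, n = 3). The log2 difference was -0.037, a 0.974-fold level with a 95% interval of 0.804 to 1.18 (unpaired limma adjusted p = 0.998, exact permutation p = 0.8). With pairing the interval was 0.845-fold to 1.12-fold (limma adjusted p = 0.913).

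The dimmer gch2 probe set read 991.2, 999.1 and 588.7 on runzel arrays 1, 2 and 3, and 1133.1, 676.3 and 683.9 on wildtype arrays 1, 2 and 3. The lowest value was a runzel array and the highest a wildtype array, and the groups overlapped. Means were 859.7 ± 234.7 and 831.1 ± 261.6 (SD, n = 3), a log2 difference of 0.049 with an interval of 0.682-fold to 1.57-fold (unpaired limma adjusted p = 0.999, exact permutation p = 1.0). The mean differences of the probe sets of gch2 thus had opposite signs, both within the spread of the arrays. Within pairs they moved the same way, at -0.11, 0.13 and -0.13 for the brighter and -0.18, 0.53 and -0.20 for the dimmer probe set. Pair 2 was higher in runzel on both probe sets and pairs 1 and 3 were lower.

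**Figure D1:**
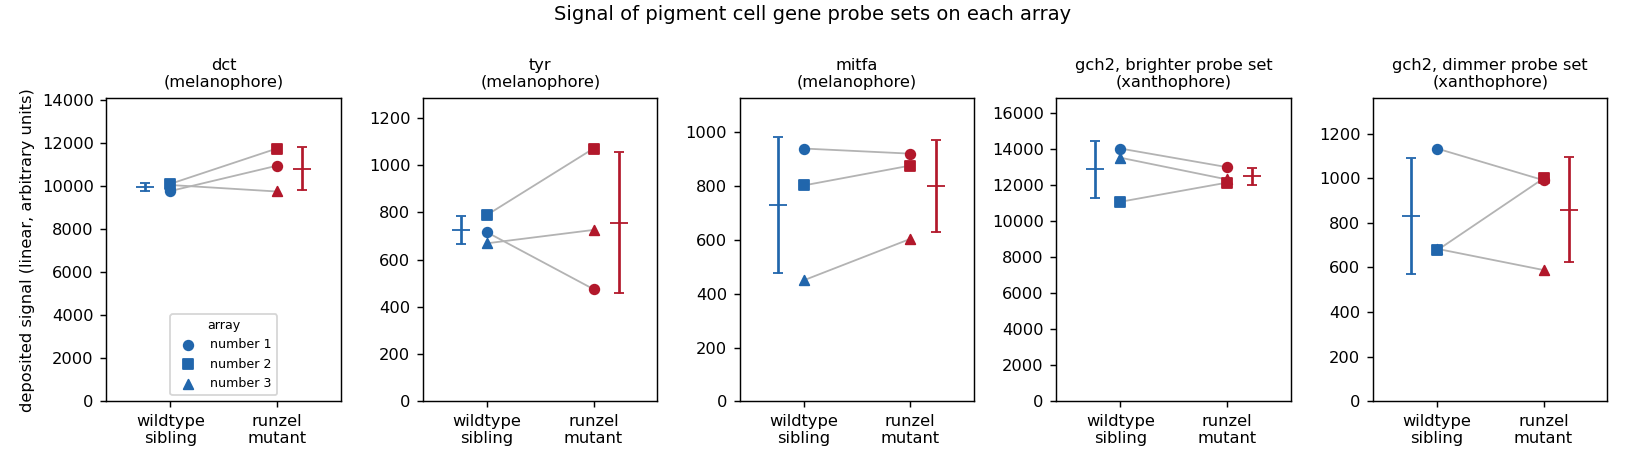
Deposited signal (linear, arbitrary units, each vertical axis from 0) of the 5 member probe sets on the 3 wildtype and 3 runzel arrays. Points are arrays, grey lines join arrays of the same number, and the bars beside them give the mean and SD (n = 3). The groups overlap on every member, and the mitfa probe set is lowest on array 3 of both groups, at 602.8 and 449.1.

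The members differed in how closely the arrays bounded their difference. The brighter gch2 and the dct probe sets varied least, with a ratio of highest to lowest signal over the 6 arrays of 1.27 and 1.2. For them the unpaired intervals end at 1.18-fold and 1.30-fold on the high side and at 0.804-fold and 0.901-fold on the low side. Over the same arrays the ratio was 2.25 for tyr, 2.09 for mitfa and 1.92 for the dimmer gch2 probe set, and their intervals reached from 0.657-fold to 1.73-fold. The paired intervals were narrower, at 0.730-fold to 1.36-fold for tyr, 0.861-fold to 1.45-fold for mitfa and 0.780-fold to 1.37-fold for the dimmer gch2 probe set. None of the 5 members moved in the same direction in all 3 pairs, as 34.7% of all tested probe sets did. No member was called. In bulk tissue, a change in pigment cell number and a change in RNA per pigment cell cannot be told apart.

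**Figure D2:**
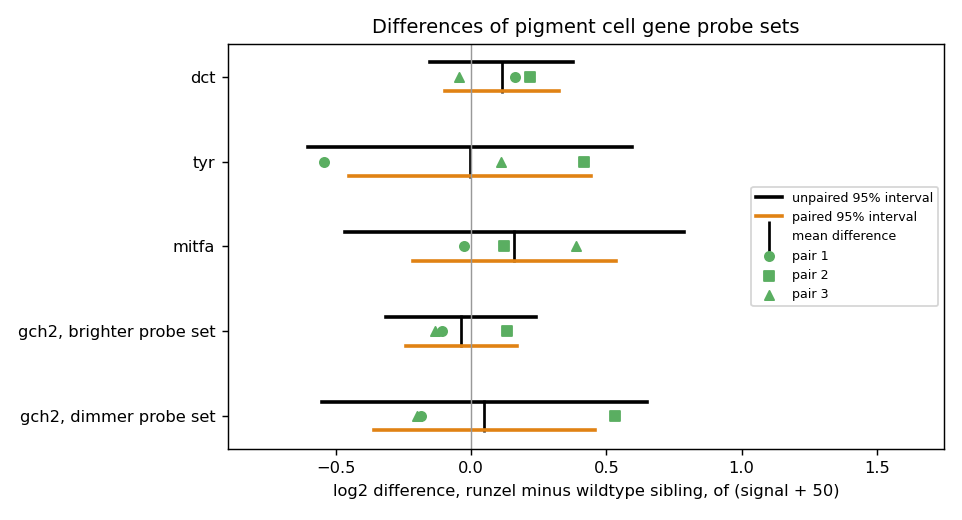
Log2 difference, runzel minus wildtype sibling, of signal plus 50 for the 5 member probe sets. Black lines are unpaired and orange lines paired 95% intervals from limma, the vertical tick is the mean and symbols are the 3 same-numbered pairs. Every interval spans 0, and the dct and brighter gch2 intervals are the narrowest.

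Other genes were taken from lists chosen for roles in pigment cells or in pathways that these cells use, with each gene represented by its brightest tested probe set. The lists were not limited to genes particular to pigment cells, so their values in trunk tissue do not stand for those cells alone. Of 34 genes on the melanophore and melanosome list 11 were tested, of 19 on the xanthophore list 10 and of 24 on the iridophore and purine synthesis list 10. Together these 31 genes, which include the member genes, had 11 log2 differences above 0 and 20 below, with a median of -0.037. Limma called 0 of the 31 without pairing, with 2 at an unadjusted p under 0.05, a level that 4.81% of all tested probe sets passed. With pairing it also called 0, with 3 at an unadjusted p under 0.05, which 12.7% of all passed. The groups did not overlap for 3 of the 31 genes, or 9.68%, beside 10.5% of all tested probe sets. All 3 were higher in runzel, as 5.89% of all tested probe sets were without overlap, and 4.6% of all were lower without overlap.

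The melanophore and melanosome list had a median log2 difference of -0.0062, with 5 genes above 0 and 6 below. The tested gene of that list farthest from 0 was tspan36, which encodes a tetraspanin of zebrafish pigment cells. It read 11017.4, 10807.6 and 15852.2 on runzel arrays 1, 2 and 3, and 9997.3, 8453.0 and 9141.4 on wildtype arrays 1, 2 and 3. All runzel arrays were above all wildtype arrays, array 3 by the widest margin within a pair. The log2 difference of 0.43 did not pass (limma adjusted p = 0.977 unpaired and 0.153 paired, exact permutation p = 0.1, the lowest this design allows). At the other end, kita, the gene of a receptor that melanophores need to migrate and survive, read 777.9 ± 106.7 in runzel and 990.3 ± 225.2 in siblings (SD, n = 3). Its log2 difference of -0.32 was lower in 3 of 3 pairs and did not pass (limma adjusted p = 0.977 unpaired and 0.434 paired). The vacuole sorting gene vps39, too dim to be tested and with a larger log2 difference of 0.65, read 517.0 ± 38.2 in runzel and 313.7 ± 48.1 in siblings (SD, n = 3), without overlap (exact permutation p = 0.1). Neither the melanocortin receptor gene mc1r (0.043) nor the melanosome trafficking genes rab32a (-0.024), hps4 (0.048), ap3b1a (-0.087) and vps18 (-0.023) passed in either fit.

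The xanthophore list had a median of -0.07, with 3 genes above 0 and 7 below. Next to gch2 in the pteridine pathway stands gchfr, whose product regulates GTP cyclohydrolase by feedback in mammals. It read 1121.8, 1071.8 and 1016.3 in runzel and 942.6, 876.5 and 958.9 in wildtype siblings, on arrays 1, 2 and 3. The groups did not overlap, and the log2 difference of 0.20 did not pass (limma adjusted p = 0.977 unpaired and 0.627 paired). The tested gene of the list farthest from 0 was scarb1, with a log2 difference of -0.27, while bco1 stood at 0.19. The pterin recycling genes pcbd1 and qdpra had log2 differences of -0.23 and -0.25. The transporter genes slc2a15b and slc2a11b, known from xanthophores, had -0.20 and -0.10. Transcripts of mycbp2 stood at -0.03 and of pax7a, a transcription factor gene of xanthophore precursors and muscle precursors, at 0.02. No gene of these passed in either fit. The receptor gene csf1ra, a defining xanthophore and macrophage marker, was too dim to be tested, at 77.4 ± 47.7 in runzel and 42.3 ± 13.8 in siblings (SD, n = 3).

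No iridophore member was on the table, so the iridophore class rests on purine synthesis genes, which dividing cells use as well. Their list had a median of -0.094, with 3 genes above 0 and 7 below. The de novo synthesis genes paics, atic and gart, of which paics and gart are needed for zebrafish pigmentation, had log2 differences of -0.13, -0.11 and -0.29. On the other side of 0, impdh2, encoding the enzyme that commits purines to guanine nucleotides, read 4252.6, 4754.1 and 4720.8 in runzel and 2969.8, 3090.8 and 4047.6 in wildtype siblings, on arrays 1, 2 and 3. Its groups did not overlap, and its log2 difference of 0.45 did not pass (limma adjusted p = 0.963 unpaired and 0.137 paired). The adenylosuccinate lyase gene adsl had 0.26 and was higher in 3 of 3 pairs (limma adjusted p = 0.977 unpaired and 0.306 paired). The paralogue of impdh2, impdh1b, stood at -0.067. The endothelin receptor gene ednrba, known from iridophores, stood at -0.08 and did not pass either.

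Genes of the neural crest, the source of the pigment cells, had a median of -0.08 over 9 tested genes, with 3 above 0 and 6 below. This list shares kita and ednrba with the pigment lists, and its median is the value of ednrba. The crest transcription factor genes sox10, foxd3 and tfap2a stood at log2 differences of 0.019, -0.078 and -0.11, and the crest transcript crestin at 0.22, and none passed in either fit. A gene of this list, sox9b, a transcription factor gene of crest, cartilage and fin, was higher with pairing. It read 2078.0, 2476.2 and 2397.6 on runzel arrays 1, 2 and 3, and 1541.4, 1433.7 and 1358.9 on wildtype arrays 1, 2 and 3, with no overlap. Its log2 difference was 0.66 (limma adjusted p = 0.649 unpaired and 0.0437 paired, where 0.72% of all probe sets were called higher). The paired call was lost without pair 1, pair 2 or pair 3 (limma adjusted p = 0.103, 0.18 and 0.0881), without the intensity trend (0.234) and with the number as a random block (0.0725). On the same list mbpa was lower without overlap, at 1970.7 ± 317.9 in runzel and 2420.9 ± 241.5 in siblings (SD, n = 3). Its log2 difference of -0.30 did not pass (limma adjusted p = 0.977 unpaired and 0.367 paired). Of the 9 tested genes 1 was higher and 1 lower without overlap, beside 5.89% and 4.6% of all tested probe sets. The list's brightest genes beside tfap2a and foxd3 included snai2, at -0.27.

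**Figure D3:**
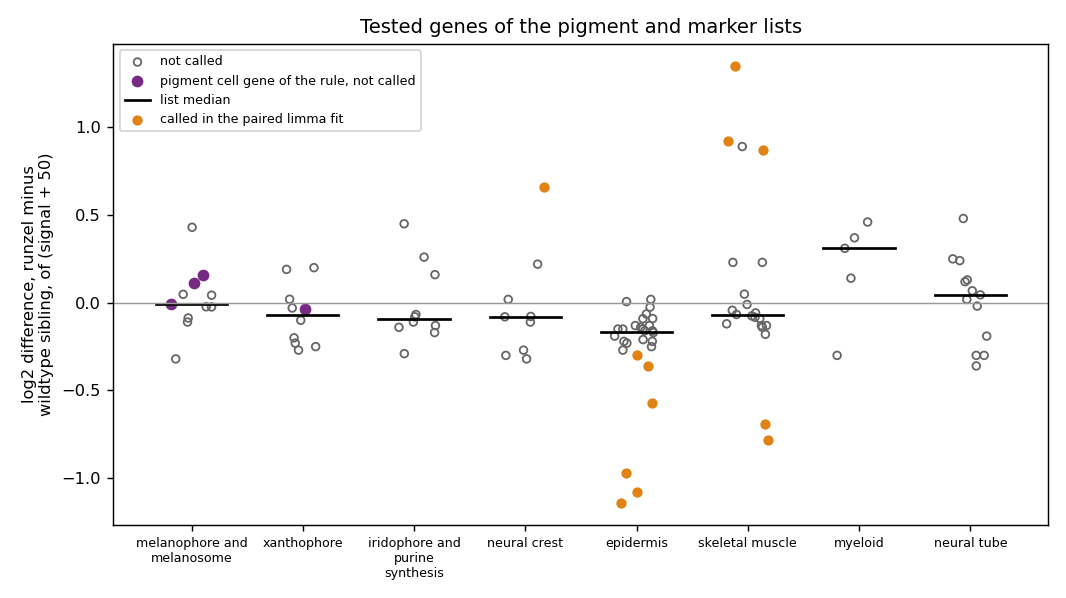
Log2 difference, runzel minus wildtype sibling, of signal plus 50 for each tested gene of 8 lists, with the list median as a bar. Purple points are the pigment cell genes of the rule and orange points genes called in the paired limma fit. No gene of the 3 pigment lists is orange, while 6 epidermis genes are, all below 0.

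Markers of other tissues of the trunk were set beside these values. Of the epidermis markers 26 of 28 tested genes lay below 0, with a median of -0.17, and 6 fell in the paired limma fit, which called 0.473% of all probe sets lower. With the number as a random block 2 of these 6 calls held, krt94 and agr1, and without the intensity trend the paired fit called 0 epidermis genes. The keratin gene krt94 fell from 2302.3 ± 191.2 to 1068.4 ± 171.3 (SD, n = 3), a log2 difference of -1.08, lower in 3 of 3 pairs (limma adjusted p = 0.23 unpaired and 0.00447 paired). That call held with each pair left out and was lost without the intensity trend (limma adjusted p = 0.119), and with a pair left out the paired fit called 1 to 5 epidermis genes. The mucus cell gene agr1 had a log2 difference of -1.14, and its paired call was lost without pair 1 or pair 2 (limma adjusted p = 0.103 and 0.0682). On the same list agr2 stood at 0.019 and did not pass in either fit. The keratin genes krt15, krt17 and krt1-19e had -0.97, -0.57 and -0.36. The call of krt15 was lost without pair 2 (limma adjusted p = 0.107), and that of krt17 without pair 1 or pair 2 (0.0983 and 0.149). Of the 3 brightest epidermis genes, krt4 and krt8 stood at -0.091 and -0.14 and did not pass. The other, krt1-19e, was called with pairing (limma adjusted p = 0.0204). It lost that call without pair 1 or pair 2 (limma adjusted p = 0.299 and 0.0708). Of the 21 muscle genes, mybpc2b (1.35), ttn.2 (0.92) and desma (0.87) rose and acta1a (-0.78) and pvalb3 (-0.69) fell in the paired limma fit, of which acta1a alone was called with the random block, and the bright actc1b, mylz3 and pvalb2 (-0.13, -0.18 and -0.14) did not pass. None of the 5 was called without the intensity trend, and without pair 1 the calls of ttn.2 and pvalb3 were lost (limma adjusted p = 0.0613 and 0.101). The summed signal of the epidermis list was 487470 to 589323 on runzel and 582536 to 646337 on wildtype arrays. For the melanophore list, the sums were 30577 to 33240 on runzel and 26954 to 29437 on wildtype arrays, without overlap, and dct and tspan36 made up most of them. Of the 11 tested genes of that list, tspan36 alone was without overlap between the groups, and dct overlapped. The list had 5 genes above 0 and 6 below, with a median log2 difference of -0.0062, so the sums do not stand for the list as a whole. The difference of these sums was not tested. The xanthophore sums overlapped, at 23547 to 27915 and 23892 to 31519. Whether the difference of dct or gch2 differs from that of the keratins was not tested, and the part of skin content in the pigment values was not tested.

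Of the eye markers, 17 of 18 measured genes were too dim to be tested, at a signal of at most 750.2 on any array, and the lens gene cryaa was at 173.9 ± 63.8 in runzel and 144.8 ± 66.4 in siblings (SD, n = 3). The tested eye gene, opn1sw2, read 1042.6 ± 97.6 in runzel and 952.5 ± 56.8 in siblings (SD, n = 3). It stood at percentile 63.2 of brightness, above the members tyr and mitfa at 54.3 and 55.0. The brighter probe set of rpe65a, which encodes the retinoid isomerase of the eye's pigmented epithelium, read 518.6, 668.6 and 241.4 on runzel arrays 1, 2 and 3, and 212.7, 212.2 and 168.1 on wildtype arrays 1, 2 and 3. These untested values did not overlap, at a log2 difference of 1.00 (exact permutation p = 0.1, the lowest this design allows). It was the 1 eye gene of 18 without overlap, beside 10.5% of all tested probe sets (5.89% higher in runzel). The list had 11 genes above 0 and 7 below, beside 4769 above and 4532 below among all tested probe sets. These shares cover tested probe sets only. None was computed for probe sets under the filter, where rpe65a and most of the eye genes lie. The rpe65a probe set was singled out after its values were seen. The brightest eye genes, opn1sw2, opn1sw1 and opn1lw1, encode cone opsins and stood at 0.12, 0.14 and -0.20. Also, runzel array 2, the highest for rpe65a, was the highest for dct and tyr. That array was also the highest for other eye genes, such as opn1sw2, opn1sw1, gnat1 and cryaa, but not for opn1lw1 or crybb1. Among dim genes of other lists, csf1ra (132.5) and snai1b (170.9) peaked on it as well, and pmelb, vps39 and ptprc did not. These genes were picked after their values were seen, and the share of genes that peak on that array was not computed. For mitfa the highest was wildtype array 1 (938.3), and for tspan36 it was runzel array 3 (15852.2). The part of eye tissue in the melanin gene values was not tested. The 5 tested myeloid genes had a median of 0.31 and the 13 tested neural tube genes one of 0.045, and no gene of either list passed. Their brightest genes were the neutrophil genes lyz (0.31) and mpx (0.46) and the leukocyte gene lcp1 (0.14), and the neural genes gfap (-0.19), snap25a (0.045) and fabp7a (-0.30).

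Profiles over the 6 arrays were then compared by the root-mean-square difference of the log2 values after each probe set's own mean had been taken off, among 7194 other tested probe sets with 1 symbol. Nearest to dct were supt5h, a transcription elongation factor gene, at 0.0207, the splicing factor gene sf3b3 at 0.0233 and opn1sw2, a cone opsin gene, at 0.0352. Nearest to the brighter gch2 probe set were nucb1 at 0.0338, tp63, a transcription factor gene of epidermal basal cells, at 0.0433, and ppp4r3b at 0.0436. None of the other member genes was among these neighbours. For tyr and mitfa this was fixed by their wider spread, an SD over arrays of 0.353 and 0.392, and says nothing of a shared profile. The dct and gch2 profiles themselves had a small SD over the arrays, 0.106 and 0.122 on the log2 scale, so that many probe sets of steady signal lie near them. Since likeness was measured over the same arrays, the neighbours' group differences follow from the choice and are not compared with those of the members.

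**Figure D4:**
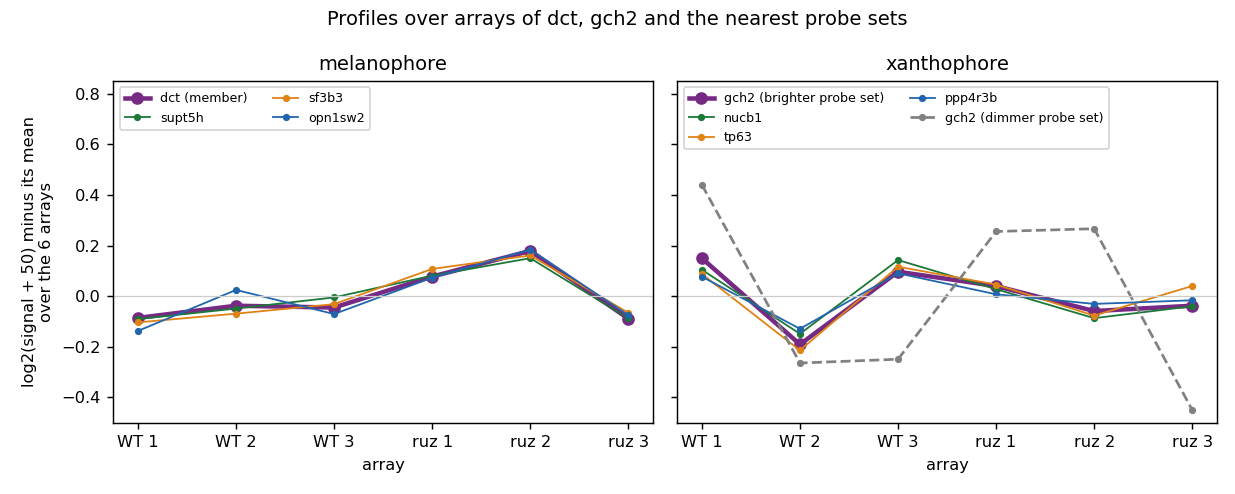
Log2 of signal plus 50, minus its own mean over the 6 arrays, for dct (left) and the brighter gch2 probe set (right) with the 3 nearest probe sets of each, and the dimmer gch2 probe set as a dashed line. Arrays have no order, and lines only link points of a gene. The dimmer gch2 probe set spreads wider than the brighter one, with an SD over arrays of 0.364 against 0.122.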

How the data were processed

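Signal was measured on 6 Affymetrix Zebrafish Genome Arrays, 3 per group, with groups taken from the sample titles. The deposited values are linear signal intensity, 1 per probe set and array. Arrays were scanned on an Affymetrix GeneChip scanner and quantified with default settings of its software, per the labels. The sources used here do not name the summary method. All arrays had a 2% trimmed mean of 1500.42 to 1500.46, which shows prior scaling, and the values were kept as they were. Precision is limited by the number of arrays.

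The 115 control probe sets were left out. Of 15502 others, 10795 had 1 platform symbol, 135 several and 4572 none; 10711 matched the RefSeq gene table by Entrez identifier, and 1 symbol was updated. Log2(signal + 50) was analysed, which understates changes of dim probe sets, and probe sets under the 40th percentile of mean log2 value (8.904) were left out of tests. The groups were set against each other with limma 3.58.1 under R 4.3.3 (empirical Bayes with an intensity trend, Benjamini-Hochberg over 9301 probe sets, threshold 0.05, two-sided). The script was tested on simulated data. Exact two-sided permutation (smallest p = 0.1) and sign-flip tests (smallest p = 0.25) were run on single probe sets.

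The fit without a block was the primary one. Deviations from group means correlated at 0.551, 0.389 and 0.526 between same-numbered arrays, and the series description matches mutants to siblings by clutch, so same-numbered arrays were treated as pairs, although no label says so. Paired values come from the fit with this block.

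Members and lists were chosen with earlier results of these data known. The rule for named genes took every member, the 3 brightest genes of each list, up to 5 called genes per list and the 3 nearest profiles; other genes were chosen after their values were seen.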

Additional observations from a re-analysis of the deposited data

How the results depend on the processing

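Each value was recomputed with the replicate block, with 16 in place of 50 added before log2, without the intensity filter, with a filter at the 60th percentile, after quantile normalization, without the intensity trend with and without the block, with replicate number as a random block, which for counts and lists was chosen after seeing the data, and with each array or each pair left out. No member probe set passed in limma under any of these, and the smallest adjusted p was 0.502. With a filter at the 60th percentile tyr, mitfa and the dimmer gch2 probe set were too dim to be tested. With arrays or pairs left out, the sign of tyr turned (-0.277 to 0.27), as did that of mitfa (-0.133 to 0.36), the brighter gch2 (-0.142 to 0.0281) and the dimmer gch2 probe set (-0.192 to 0.285), while dct stayed above 0, at 0.0505 to 0.19. The count of called probe sets was 0 without the block, 111 with the replicate block and 3 with the block but no trend. It was 0 to 1 with an array left out of the unpaired fit, and 32 to 165 with a pair left out of the paired fit. The replicate block called 1 neural crest gene, 6 epidermis genes and 5 skeletal muscle genes. Without the trend it called 0 on each of these lists. The random block called 19 probe sets in all and kept 0 of the 1, 2 of the 6 and 1 of the 5 calls. With an array left out of the unpaired fit, limma called 0 epidermis and 0 muscle genes. With a pair left out of the paired fit, it called 1 to 5 epidermis and 3 to 5 muscle genes. The median of the skeletal muscle list turned to 0.0271 under quantile normalization. With arrays or pairs left out, medians ran from -0.0642 to 0.0536 for the melanophore list, from -0.161 to 0.0333 for the xanthophore list, from -0.147 to 0.00224 for the iridophore and purine synthesis list, from -0.157 to -0.0523 for the neural crest list, from -0.26 to -0.0667 for the epidermis list and from -0.0591 to 0.179 for the neural tube list. The cause of these changes was not tested.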
